A study of Mus musculus with 6 samples.

Results

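The 46 genes described here encode the proteins that copy DNA in S phase and the cyclins and E2F factors that start it. They were chosen by symbol, and all 46 were present among the 19124 gene symbols of the count table and passed its filter on low counts. RNA was measured in CD31-sorted cells of the mouse retina at postnatal day 7, in 3 KO and 3 Ctrl libraries, each from a different C57BL/6 pup. KO pups carried the genotype Pdgf{beta}CreERT2pos Rnf20p/p and Ctrl pups Pdgf{beta}CreERT2neg Rnf20p/p, so both groups had the Rnf20p/p alleles and differed by the recombinase CreERT2, whose transgene is named for Pdgf beta and is used to delete genes in endothelium. Both groups received 75 µg of 4-hydroxytamoxifen, which switches CreERT2 on, daily from day 1 to day 4. Rnf20 encodes an E3 ubiquitin ligase that acts on histone H2B. The labels state neither what p/p denotes nor which part of Rnf20 is removed, and the groups also differ in the presence of CreERT2 itself. With 1 library per pup, p-values measure the spread between these 6 pups.

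A cell copies its DNA once per division. In G1 phase the origin recognition complex, with Cdc6 and Cdt1, loads the ring-shaped Mcm2 to Mcm7 helicase onto DNA, and in S phase Cdc45 and the GINS complex turn the loaded ring into an active helicase that polymerases follow. Most genes of this machinery are switched on together late in G1 phase by E2F factors, once D-type and E-type cyclins have inactivated the retinoblastoma protein, so their RNA is high in dividing cells and low in resting ones. At day 7 the retinal vessels are still growing and endothelial cells behind the sprouting front divide, while most retinal neurons have left the cell cycle.

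The promoters of 3 subunits of the same Mcm ring are shown because their proteins belong to 1 complex and E2F factors are known regulators of the family. Each line holds the 250 bases before the start site, read 5′ to 3′ on the gene's strand (RefSeq, GRCm38.p6, the assembly of mm10). Capitals mark the E2F motif, searched as TTTCCCGC, TTTCGCGC, TTTGCCGC or TTTGGCGC on both strands. The windows are chr8:75109259-75109508 on the plus strand for Mcm5, chr1:128359706-128359955 on the minus strand for Mcm6 and chr6:88898781-88899030 on the minus strand for Mcm2.
Mcm5: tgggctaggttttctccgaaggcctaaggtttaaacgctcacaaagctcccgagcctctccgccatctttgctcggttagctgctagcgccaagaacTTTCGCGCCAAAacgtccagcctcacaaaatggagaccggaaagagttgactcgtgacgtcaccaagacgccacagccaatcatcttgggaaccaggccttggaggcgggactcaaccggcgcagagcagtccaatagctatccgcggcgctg
Mcm6: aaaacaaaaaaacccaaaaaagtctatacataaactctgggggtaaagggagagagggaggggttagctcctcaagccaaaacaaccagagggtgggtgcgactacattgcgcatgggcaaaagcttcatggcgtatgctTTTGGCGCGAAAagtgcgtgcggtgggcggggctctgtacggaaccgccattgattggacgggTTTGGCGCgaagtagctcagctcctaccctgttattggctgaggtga
Mcm2: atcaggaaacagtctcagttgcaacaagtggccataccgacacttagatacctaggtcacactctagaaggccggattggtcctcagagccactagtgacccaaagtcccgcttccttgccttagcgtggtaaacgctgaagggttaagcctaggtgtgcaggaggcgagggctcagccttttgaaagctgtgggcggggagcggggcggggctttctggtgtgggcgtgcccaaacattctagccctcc
Mcm5 held 2 E2F motifs that overlap each other, Mcm6 held 3, of which the first pair overlap, and these letters were not in the Mcm2 window. Promoter sequences were found for 38 of the 46 genes, and in 28 the start site lay within 100 bases of the start of the counted transcript. Of these 28 windows of 300 bases, which run to 50 bases past the start site, 8 (28.6%) held an E2F motif, against 3.5% of 11554 promoters of the same length. They belong to Cdt1, Mcm3, Mcm5, Mcm6, Orc1, Pola1, Pold1 and Rfc3. No window was searched for E2f1, E2f2, E2f7, Ccne2, Gins1 to Gins4, Cdc45, Cdc6 or Orc6. The same holds for Mcm4, Mcm7, Pole, Prim2, Pcna, Rfc2 and Lig1. The CCAAT box, on either strand, was in 18 of the 28 (64.3%) and in 38.7% of all these promoters.

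Libraries held 14581701 to 30692948 counts, and levels are given as CPM, counts scaled to a common library size with TMM factors, which adjust for library composition. Rnf20 was at 39.1, 31.0 and 31.7 CPM in KO 1, 2 and 3, against 47.9, 57.1 and 56.8 CPM in Ctrl 1, 2 and 3, and did not pass the threshold used throughout, an adjusted p of 0.05 by edgeR's quasi-likelihood test (log2 fold change −0.67, edgeR adjusted p = 0.101). Since the deleted part is not stated, this count checks the labels only loosely. The defining markers of endothelium were detected in every library, and so was RNA of other retinal cells. Beside the counts of called markers that follow, 5.85% of all tested genes were called higher in KO and 4.44% lower. The 15 endothelial markers summed to 11428 to 15631 CPM in KO and 3708 to 5656 CPM in Ctrl, with 10 higher (66.7%) and 0 lower in KO. The 14 photoreceptor markers summed to 4942 to 22235 CPM in KO and 19588 to 33823 CPM in Ctrl, with 0 higher and 4 lower. The 12 microglial and macrophage markers summed to 252 CPM in KO 1, 12696 in KO 2 and 2422 in KO 3, and to 267 to 1712 CPM in Ctrl, with 0 called and none at 0 in any library. The 8 retinal progenitor markers, of which 0 were called and none was at 0, summed to 472 to 1058 CPM in KO and 857 to 1829 CPM in Ctrl. Of 5 erythroid markers that passed the filter 4 were higher and all 5 separated the groups with KO above (against 19.0% of all genes). They had a median log2 fold change of 2.83 and summed to 384 to 557 CPM in KO and 50.6 to 81.6 CPM in Ctrl. Since 2 of these 5 hold identical values, they are 1 measurement given under 2 names. Of 11 tested markers of inner retinal neurons 4 were lower (652 to 1288 CPM in KO and 2175 to 2555 CPM in Ctrl), with Gad1 at 0 in Ctrl 1 and Lhx1 at 0 in KO 1 and Ctrl 1. Of 8 mural markers 1 was higher (301 to 771 CPM in KO and 121 to 794 CPM in Ctrl). All 8 mural estimates were positive (against 51.0% of all genes), with a median log2 fold change of 1.29. Without the most abundant mural marker the other 7 summed to 104 to 201 CPM in KO and 26.3 to 113 CPM in Ctrl. Of 8 markers of astrocytes and Müller glia 2 were higher (1752 to 16443 CPM in KO and 1835 to 2515 CPM in Ctrl), with Aqp4 at 0 in KO 1. In KO 2, KO 3, Ctrl 1 and Ctrl 2 most of this last sum came from 1 gene. Without the most abundant marker of the list the other 7 summed to 1277 to 1561 CPM in KO and 811 to 1226 CPM in Ctrl. In sorted bulk samples fewer cells of a type and less RNA per cell cannot be told apart, and the part of these markers in the results below was not tested.

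More of the 46 genes lay higher than lower in KO, but few differences passed the threshold. By edgeR only E2f1 and Gins2 rose, and 0 fell. These 2 of 46 (4.35%) stand beside 10.3% of 16217 genes tested that were called in either direction (5.85% of all tested genes higher and 4.44% lower), so the share of the genes called was not above the background. The estimate was positive for 38 of 46 (82.6%, against 51.0% of all genes), and the median log2 fold change was 0.43, against 0.03 over all genes tested. By role the median was 0.49 for origin licensing, 0.62 for helicase activation, 0.30 for polymerases and primase, 0.13 for the clamp and strand joining, 0.61 for nucleotide supply, 0.68 for chromatin copying and 0.57 for cyclins and E2F factors. The 3 KO values lay above the 3 Ctrl values in 14 of 46 genes (30.4%, against 19.0% of all genes) and below them in 0 (against 18.9%). An unadjusted p below 0.05 was reached by 11 genes, all higher in KO (23.9%, against 16.2% of all genes in that direction), and 0 were lower (against 14.3%). In the authors' deposited table, made with DESeq2, 6 of the 46 have an adjusted p below 0.05 and a positive fold change, namely E2f1, Gins2, Tk1, Mcm5, Chaf1b and Rfc2, beside 13.6% of its genes in that direction with 1 entry per symbol, and 0 have a negative one, beside 8.20%. By DESeq2 run on the counts, 5 of the 46 were called higher, beside 12.6% of all genes, and 0 lower, beside 9.49%.

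**Figure D1:**
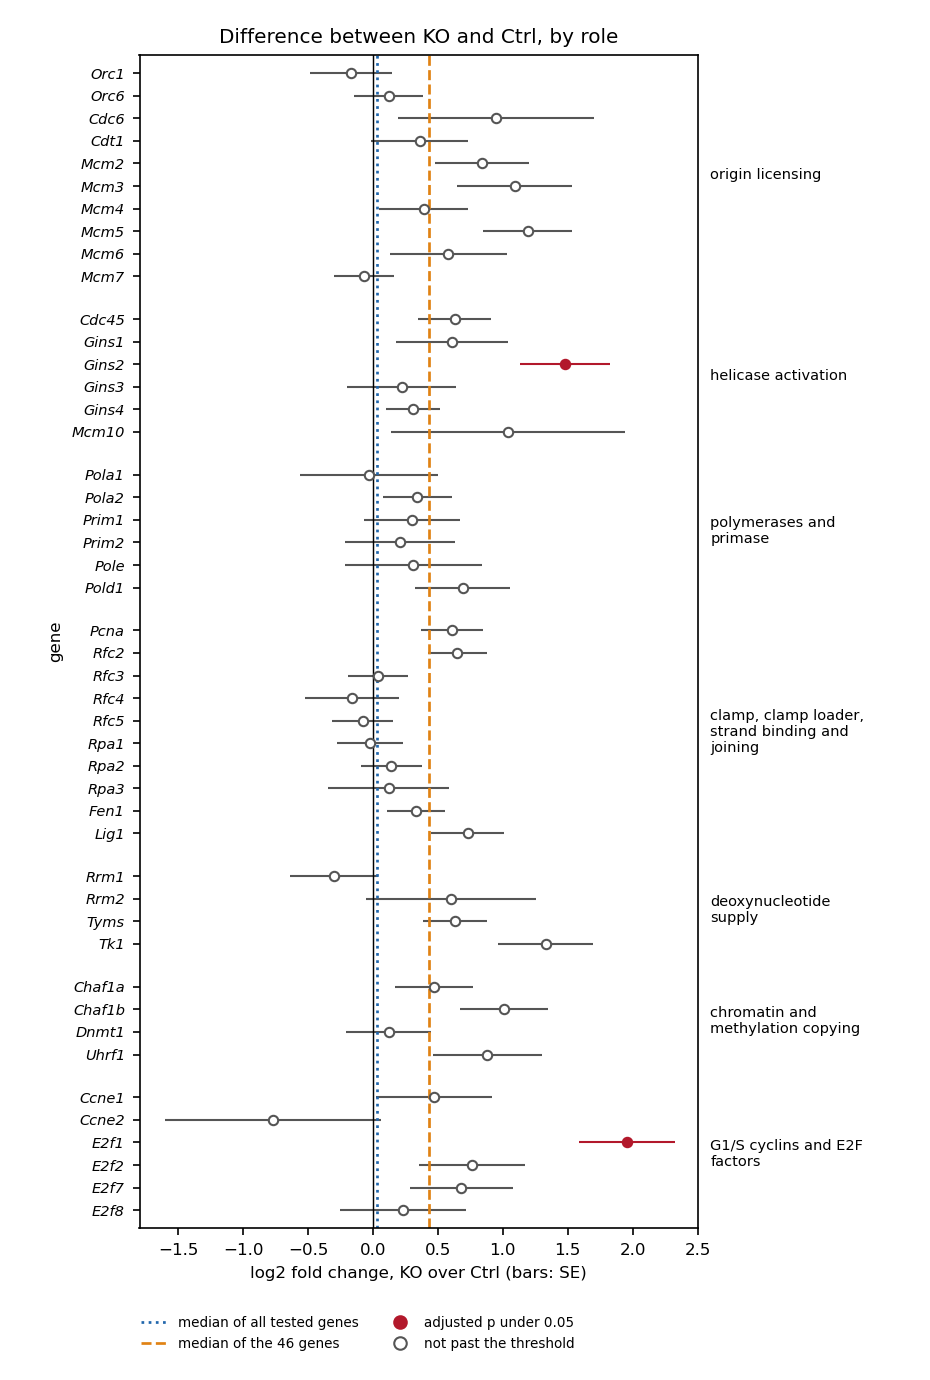
Log2 fold change of KO over Ctrl (x axis, bars are standard errors) for the 46 genes grouped by role (y axis), from 3 KO and 3 Ctrl libraries. Filled points, E2f1 at 1.96 and Gins2 at 1.48, passed the threshold; the dashed line is the median of the 46 genes (0.43) and the dotted line that of all tested genes (0.03).

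The level of these genes also varied within groups. Ctrl 1 was the lowest Ctrl library for 33 of the 46 genes (71.7%), against 44.0% of all genes tested. The median level of the 46 genes was 5.22, 5.42 and 5.00 log2 CPM in KO 1, 2 and 3, against 4.37, 4.82 and 4.65 log2 CPM in Ctrl 1, 2 and 3. Endothelial markers were also lowest in Ctrl 1, at a summed 3708 CPM, and photoreceptor markers highest there, at 33823 CPM; their part in the result was not tested. KO 3 was the lowest KO library for 30 of the 46 genes (65.2%, against 28.9% of all genes), and KO 2 the highest for 25 (54.3%, against 25.8%). Without Ctrl 1 the median log2 fold change of the 46 genes was 0.31, without KO 2 it was 0.37 and without KO 3 it was 0.63, and 37, 39 and 40 of the 46 estimates were positive. In each of the fits without Ctrl 1, Ctrl 2, Ctrl 3 or KO 2, 0 of the 46 and 0 of all genes passed the threshold. Without KO 3, E2f1 alone of the 46 passed, beside 5.23% of all genes. Without KO 1, 7 passed beside 29.7% of all genes, namely E2f1, Gins2, Mcm5, Rfc2, Tk1 and Tyms higher and Ccne2 lower.

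**Figure D2:**
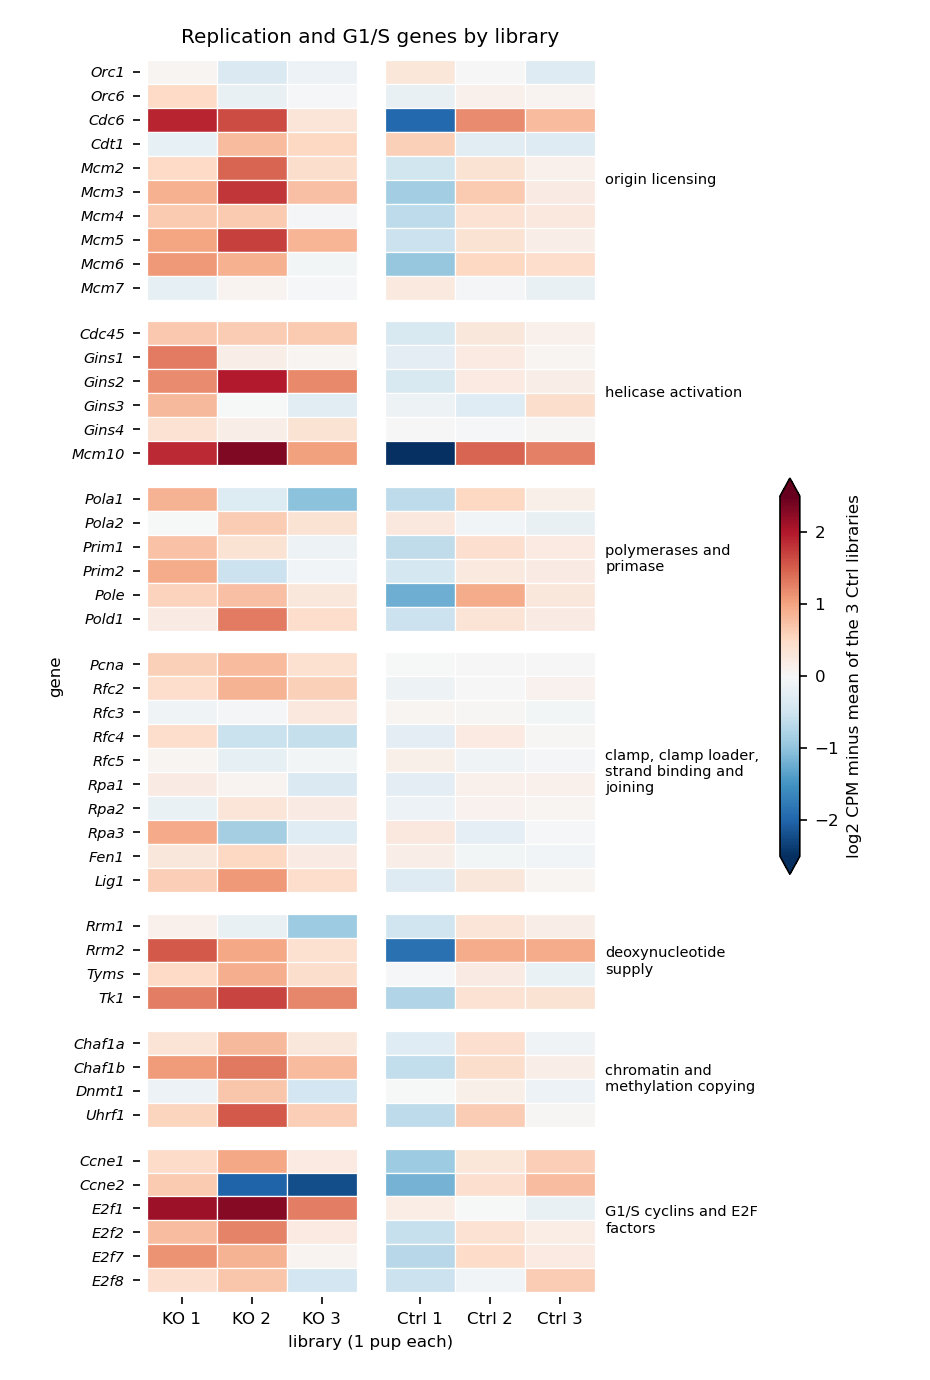
Log2 CPM of each of the 46 genes (rows, by role) in each library (columns) minus the mean of the 3 Ctrl libraries, in red above and blue below that mean; departures beyond 2.5 log2 units have the end colour. The Ctrl 1 column is mostly blue, being the lowest Ctrl library in 33 of 46 genes. E2f1, Gins2, Mcm5 and Tk1 are among the many genes that are red in all 3 KO libraries.

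Among the 6 cyclin and E2F genes of the set, E2f1 had the largest estimate. E2f1, the transcription factor that turns on much of the replication machinery and its own gene, was at 20.5, 22.5 and 11.3 CPM in KO 1, 2 and 3, against 5.26, 4.58 and 4.04 CPM in Ctrl 1, 2 and 3. The groups did not overlap, with KO 3 the lowest of the KO libraries. E2f1 averaged 18.1 ± 5.99 CPM in KO and 4.63 ± 0.612 CPM in Ctrl (SD, n = 3 each), 3.91-fold higher, and rose (log2 fold change 1.96 ± 0.370 SE, edgeR adjusted p = 0.0239). It passed in 9 of 14 alternative analyses, whose adjusted p lay between 3.12e-05 and 0.126. It rests on 62 to 154 counts per Ctrl library. The gene shares 7 bases with Necab3, at 16.7 ± 3.45 CPM in KO and 19.5 ± 2.82 CPM in Ctrl.

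The other members of the family were less separated. E2f2, a second activator, was at 11.4, 15.8 and 7.75 CPM in KO libraries, against 4.44, 8.67 and 7.56 CPM in Ctrl libraries, with overlap (log2 fold change 0.76). E2f7, a repressor that is itself an E2F target and limits S phase genes, was at 45.2, 38.0 and 21.8 CPM in KO, against 12.8, 28.8 and 24.1 CPM in Ctrl, with KO 3 inside the Ctrl range (0.68). E2f8, its partner repressor, had a log2 fold change of 0.23. None of these 3 passed the threshold (edgeR adjusted p from 0.246 to 0.787).

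The E-type cyclins, which activate Cdk2 at the entry to S phase, both overlapped between groups. Ccne1 was at 11.9, 16.8 and 10.0 CPM in KO, against 4.48, 10.5 and 13.2 CPM in Ctrl (log2 fold change 0.47). Ccne2 was at 25.3, 3.86 and 3.36 CPM in KO 1, 2 and 3, against 6.97, 21.5 and 27.2 CPM in Ctrl 1, 2 and 3 (log2 fold change −0.77 ± 0.832 SE, edgeR adjusted p = 0.560, range 0.0232 to 0.849 over 14 alternatives). KO 1 and Ctrl 1 each lay apart from the other libraries of their group, in opposite directions, and without KO 1 the estimate was −2.29 (edgeR adjusted p = 0.0232). Ccne2 shares 5622 of its 14347 bases with Ints8, a gene of the Integrator complex, and the library protocol, given below, does not mark the strand. Reads in the shared bases therefore cannot be assigned to either gene by strand. Ints8 was at 55.9, 7.77 and 6.58 CPM in KO and 20.7, 33.5 and 39.1 CPM in Ctrl, the same order of libraries within each group, and the part of shared reads in this was not tested.

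Of the 10 genes of origin licensing, the step that loads the helicase, 0 passed the threshold and 8 had positive estimates. The groups were separate with KO above in 3 of the 10 (30.0%, against 19.0% of all genes). The Mcm2 to Mcm7 proteins form a ring with 1 copy of each, and their log2 fold changes ran from −0.07 for Mcm7 to 1.19 for Mcm5. Mcm5 was at 93.8, 156 and 85.8 CPM in KO 1, 2 and 3, against 33.0, 60.9 and 53.7 CPM in Ctrl 1, 2 and 3, without overlap (2.28-fold, log2 fold change 1.19 ± 0.341 SE, edgeR adjusted p = 0.0617). Mcm3 was at 105, 197 and 95.0 CPM in KO, against 31.2, 89.5 and 65.4 CPM in Ctrl, without overlap (1.09, edgeR adjusted p = 0.141). Mcm2 was at 78.4, 153 and 75.6 CPM in KO, against 39.7, 71.7 and 60.9 CPM in Ctrl, also without overlap (0.84, edgeR adjusted p = 0.163). In all 3 genes KO 2 was the highest library and Ctrl 1 the lowest, and without KO 2 the log2 fold changes were 0.89, 0.71 and 0.45. KO 2 was also the library with the most microglial RNA, whose part in these values was not tested.

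The other ring subunits overlapped between groups. Mcm6 was at 151, 132 and 68.0 CPM in KO, against 36.2, 101 and 97.6 CPM in Ctrl, so that KO 3 lay below a pair of Ctrl libraries (log2 fold change 0.58). Mcm4 had a log2 fold change of 0.39. Mcm7 was at 57.2, 69.6 and 64.9 CPM in KO, against 78.7, 64.0 and 58.6 CPM in Ctrl, and unlike the others it was highest in Ctrl 1 (−0.07 ± 0.229 SE). Its estimate lay between −0.27 and 0.07 over 14 alternatives. Mcm7 carries Mir25 and Mir93 in its span and shares 91 bases with Ap4m1, so its count may hold reads of these.

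The loaders of the ring overlapped between groups. Cdc6, the ATPase that recruits the ring, was at 15.8, 12.9 and 5.21 CPM in KO, against 0.991, 9.41 and 7.23 CPM in Ctrl, with 29 counts in Ctrl 1 (log2 fold change 0.95 ± 0.755 SE). Cdt1, which escorts the ring to the origin, was at 21.0, 42.1 and 34.7 CPM in KO, against 36.7, 20.0 and 19.6 CPM in Ctrl (0.36), and with GC offsets, described below, its estimate was −0.08. Orc1 (−0.17), the subunit whose amount changes through the cell cycle, and Orc6 (0.12) lay close to 0. Orc1 shares 3632 bases with Prpf38a, which held more counts than Orc1 did.

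Helicase activation included the second gene that rose. Its groups were separate with KO above in 3 of 6 genes (50.0%, against 19.0% of all genes). Gins2, a subunit of the 4-part GINS complex, was at 24.0, 42.1 and 24.5 CPM in KO 1, 2 and 3, against 8.06, 12.4 and 11.9 CPM in Ctrl 1, 2 and 3. Every KO library lay above every Ctrl library, and KO 2 was the highest. Gins2 averaged 30.2 ± 10.3 CPM in KO and 10.8 ± 2.37 CPM in Ctrl (SD, n = 3 each), 2.80-fold higher (log2 fold change 1.48 ± 0.346 SE, edgeR adjusted p = 0.0371). It passed in 8 of the 14 alternatives, with an adjusted p between 0.00149 and 0.136. It shares 118 bases with Gse1, at 104 ± 50.8 CPM in KO and 151 ± 49.9 CPM in Ctrl, so its count is uncertain by the reads that fall there.

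The 3 other GINS genes did not pass the threshold, although the complex holds 1 copy of each subunit. Gins4 was at 82.0, 71.1 and 80.7 CPM in KO, against 63.0, 61.9 and 64.1 CPM in Ctrl, without overlap but with a small difference (log2 fold change 0.31 ± 0.209 SE). Gins1 was at 15.2, 6.93 and 6.34 CPM in KO, against 5.09, 7.18 and 6.32 CPM in Ctrl, with 1 high KO library (0.61). Gins3 had a log2 fold change of 0.22 with overlap. Cdc45, the other helicase partner, was at 25.2, 24.8 and 24.9 CPM in KO, against 12.03, 19.3 and 17.3 CPM in Ctrl, without overlap (0.63 ± 0.283 SE, edgeR adjusted p = 0.175). Mcm10, which helps the activated helicase leave the origin, was at 7.53, 10.4 and 4.18 CPM in KO, against 0.239, 5.65 and 4.89 CPM in Ctrl, where Ctrl 1 held 7 counts (1.04 ± 0.899 SE).

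**Figure D3:**
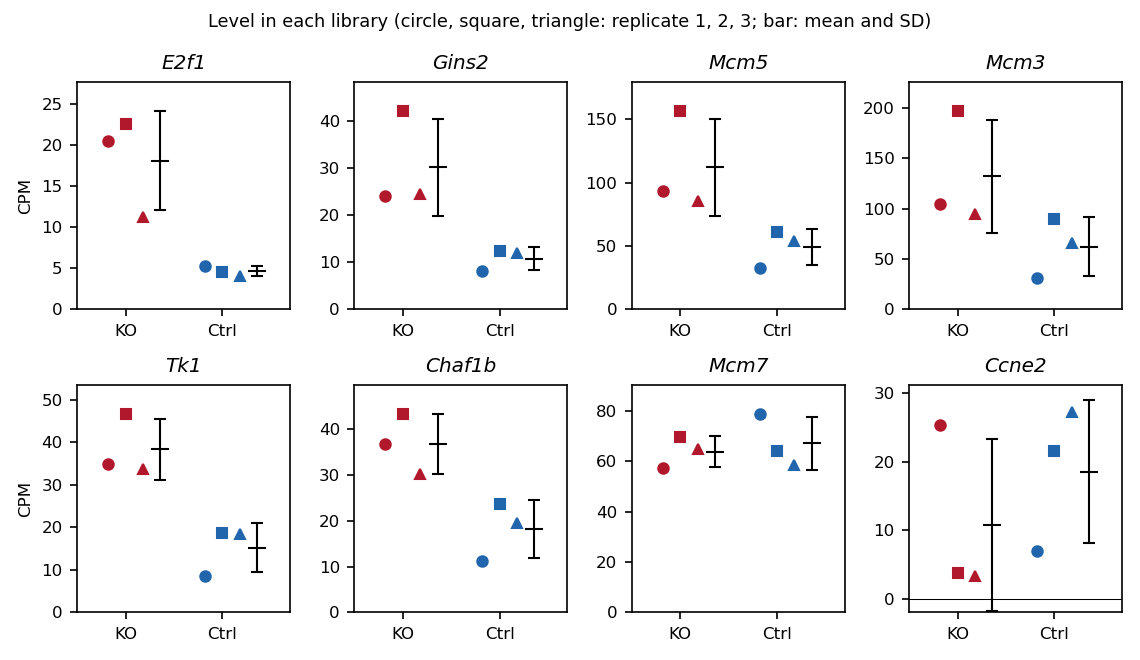
CPM (y axis, linear and including 0) of 8 genes in each library, with KO left and Ctrl right; circles, squares and triangles are replicates 1, 2 and 3 of each group, and bars the mean and SD. E2f1, Gins2, Mcm5, Mcm3, Tk1 and Chaf1b do not overlap between groups, while Mcm7 and Ccne2 do.

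Of the 6 polymerase and primase genes, 0 passed the threshold and 0 separated the groups (against 19.0% of all genes with KO above and 18.9% with KO below). Pold1, the catalytic subunit of the polymerase that copies the lagging strand, had the largest estimate, at 41.6, 88.3 and 49.4 CPM in KO, against 24.7, 45.5 and 41.4 CPM in Ctrl (log2 fold change 0.69, and 0.00 with GC offsets). Pole, the leading strand polymerase (0.31), Pola2 (0.34), Prim1 (0.30), Prim2 (0.21) and Pola1 (−0.03), which with its partners lays down primers, followed. Pola1 was at 23.9, 10.3 and 6.44 CPM in KO, against 8.27, 18.8 and 14.5 CPM in Ctrl, so that KO 1 was the highest and KO 3 the lowest library of the 6.

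Among the 10 genes of the sliding clamp, its loader, single-strand binding and strand joining, 0 passed the threshold. In 4 (40.0%, against 19.0% of all genes) the groups were separate with KO above. Pcna, the clamp that tethers polymerases, was at 39.5, 45.4 and 34.6 CPM in KO, against 25.9, 26.1 and 26.1 CPM in Ctrl. Its Ctrl values were nearly equal and all KO values lay above them (1.53-fold, log2 fold change 0.61 ± 0.239 SE, edgeR adjusted p = 0.131). With GC offsets the estimate was 0.95 and passed (edgeR adjusted p = 0.0451, range 0.0451 to 0.344 over 14 alternatives). Pcna-ps1 and Pcna-ps2 are annotated pseudogenes that the count table does not list, and reads shared with them make its count uncertain.

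Of the clamp loader subunits, Rfc2 alone separated the groups. Rfc2 was at 114, 151 and 126 CPM in KO, against 76.0, 83.5 and 88.9 CPM in Ctrl, without overlap (1.57-fold, log2 fold change 0.65 ± 0.227 SE, edgeR adjusted p = 0.0983). Its partners Rfc3 (0.04), Rfc4 (−0.16) and Rfc5 (−0.08) lay close to 0, and all overlapped. Rpa1 (−0.02), Rpa2 (0.14) and Rpa3 (0.12), which coat single-stranded DNA, also lay close to 0. Lig1, which seals the joined fragments, was at 54.8, 76.3 and 48.9 CPM in KO, against 28.7, 43.3 and 36.8 CPM in Ctrl, without overlap (0.73, edgeR adjusted p = 0.126), and Fen1, the nuclease that trims them, was 1.26-fold higher without overlap (0.33, edgeR adjusted p = 0.343).

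Of the 4 genes of deoxynucleotide supply, 0 passed, and the thymidine enzymes separated the groups while the ribonucleotide reductase genes did not. These 2 of 4 (50.0%) stand beside 19.0% of all genes that separated with KO above. Tk1, thymidine kinase, was at 34.8, 46.6 and 33.6 CPM in KO 1, 2 and 3, against 8.51, 18.7 and 18.5 CPM in Ctrl 1, 2 and 3. All KO values lay above all Ctrl values (2.52-fold, log2 fold change 1.33 ± 0.364 SE, edgeR adjusted p = 0.0545), and 3 of the 14 alternatives passed (adjusted p 0.00694 to 0.164). Tyms, thymidylate synthase, was at 53.3, 70.5 and 51.1 CPM in KO, against 36.7, 43.3 and 33.4 CPM in Ctrl, also without overlap (0.63, edgeR adjusted p = 0.134), and a Tyms pseudogene has its own entry in the table. Rrm1, the large reductase subunit, was at 125, 101 and 60.6 CPM in KO, against 81.1, 143 and 129 CPM in Ctrl (−0.30). Rrm2, the small subunit, was at 67.9, 45.8 and 30.6 CPM in KO, against 6.32, 44.5 and 44.6 CPM in Ctrl, where Ctrl 1 lay far below the others (0.60 ± 0.652 SE). Both reductase genes overlapped.

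The 4 genes that copy chromatin and its methylation all had positive estimates and 0 passed. Chaf1b, a subunit of the chromatin assembly factor that places histones on new DNA, was at 36.7, 43.2 and 30.1 CPM in KO, against 11.3, 23.7 and 19.6 CPM in Ctrl, without overlap (2.02-fold, log2 fold change 1.01 ± 0.339 SE, edgeR adjusted p = 0.0894). Its partner Chaf1a overlapped (0.47). Uhrf1, which finds half-methylated DNA, was at 24.4, 47.6 and 25.4 CPM in KO, against 10.4, 25.6 and 16.8 CPM in Ctrl, where Ctrl 2 lay above KO 1 and KO 3 (0.88). Dnmt1, the methyltransferase that Uhrf1 recruits, was at 67.4, 121 and 54.4 CPM in KO, against 74.0, 82.4 and 67.7 CPM in Ctrl. Only KO 2 was high (0.12, and −0.28 without KO 2).

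The estimates varied with the GC content of the transcripts. Across the 46 genes, whose transcript GC content ran from 34.2% for Rpa3 to 61.0% for Pold1, Pearson's r between GC content and log2 fold change was 0.55, and across 15803 tested genes it was 0.37. Genes are not independent replicates and share the 6 libraries, so this is a description. Set against the Ctrl mean, r over the 46 genes was −0.07 in KO 1, 0.69 in KO 2 and 0.61 in KO 3. Over the 15803 tested genes it was −0.03, 0.46 and 0.55 in the same libraries. With offsets that remove each library's trend of level on GC content, an alternative added after the data were seen, the median log2 fold change of the 46 genes was 0.56, against 0.04 over all genes, and 41 estimates were positive. E2f1 (1.58, edgeR adjusted p = 0.0457) and Gins2 (1.25, edgeR adjusted p = 0.0439) still passed, and Pcna did too, beside 12.1% of all genes.

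**Figure D4:**
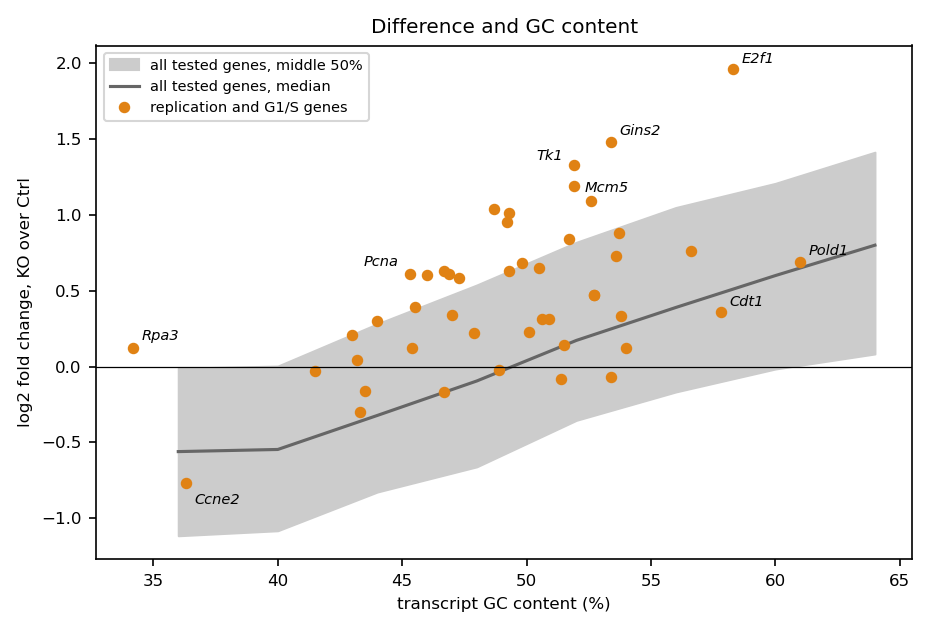
Log2 fold change of KO over Ctrl (y axis) against transcript GC content in percent (x axis) for the 46 genes (points), with the median and middle 50% of all tested genes in bins of GC content. Points run from Ccne2 at −0.77 (36.3% GC) to E2f1 at 1.96 (58.3%), and the median line of all genes also climbs with GC content.

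Other genes of the same pathway, from a list of 41 further replication factors, had a median log2 fold change of 0.01, with 22 positive and 19 negative estimates. The median depended on the libraries and on GC content, at −0.13 without Ctrl 1, 0.25 without KO 3 and 0.28 with GC offsets. Of the 41, 0 passed edgeR's threshold. At an unadjusted p below 0.05, 4 were higher (beside 16.2% of all genes) and 5 lower (beside 14.3%). By DESeq2 2 were higher (beside 12.6%) and 2 lower (beside 9.49%). KO lay above Ctrl without overlap in 7 of the 41 (17.1%, against 19.0% of all genes) and below it in 3 (against 18.9%). Pold4, named here after its values were seen, was above Ctrl in all KO libraries (log2 fold change 1.44, edgeR adjusted p = 0.0602). The constant subunits of the origin recognition complex had negative estimates: Orc2 was at 34.3, 19.1 and 22.2 CPM in KO, against 45.6, 55.3 and 46.3 CPM in Ctrl, without overlap (−0.96, edgeR adjusted p = 0.0715). Orc5 was likewise below Ctrl in all KO libraries, at 43.0, 21.8 and 27.2 CPM in KO, against 50.9, 67.4 and 72.0 CPM in Ctrl (−1.05, edgeR adjusted p = 0.0694). Orc3 (−0.98) and Orc4 (−1.05) overlapped. None of the 4 passed, and they are named here after their values were seen. Their transcripts ran from 36.8% GC for Orc4 to 44.4% for Orc2. In bins centred on 36%, 40% and 44% GC the median log2 fold change of all tested genes was −0.56, −0.55 and −0.32. The part of GC content in the 4 estimates was not tested. Without KO 1, 2 of the 41 were higher and 8 lower, in a fit that called 29.7% of all genes.

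Of 23 further genes that control the G1/S step, 3 rose and 0 fell (beside 5.85% of all genes called higher and 4.44% lower), and the median log2 fold change was 0.14, between −0.29 without KO 1 and 0.35 without KO 2. The cyclins Ccnd1 and Ccnd2, which start the inactivation of the retinoblastoma protein, were among them. Ccnd1 was at 212, 194 and 197 CPM in KO, against 83.4, 87.4 and 85.5 CPM in Ctrl, with little spread in either group (2.35-fold, log2 fold change 1.23 ± 0.209 SE, edgeR adjusted p = 0.0224). Ccnd2 was at 216, 223 and 207 CPM in KO, against 33.5, 70.1 and 81.4 CPM in Ctrl (3.49-fold, 1.80 ± 0.345 SE, edgeR adjusted p = 0.0239). Cdkn1a, the p21 inhibitor that blocks cyclin-dependent kinases and is a known p53 target, rose as well, at 740, 1253 and 1338 CPM in KO, against 247, 232 and 239 CPM in Ctrl (4.64-fold, 2.21 ± 0.293 SE, edgeR adjusted p = 0.0211). Each of the 3 genes passed in 9 of the 14 alternatives, and none did with Ctrl 1, Ctrl 2, Ctrl 3 or KO 2 left out. Bulk samples do not show whether the same cells held the cyclins and the inhibitor.

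Of 20 mitosis genes, 3 rose and 0 fell (beside 5.85% of all genes called higher and 4.44% lower), and the median log2 fold change was 0.46. This median was 0.09 without KO 1, 0.16 without Ctrl 1 and 0.75 without KO 3, while that of the 46 replication genes was 0.43, 0.31 and 0.63 in the same fits. Cdc20, an activator of the anaphase-promoting complex (1.20), Birc5 (1.26) and Cdca8 (1.10), both of the chromosomal passenger complex, were 2.29-, 2.40- and 2.14-fold higher (edgeR adjusted p = 0.0358, 0.0467 and 0.0396). With any 1 of KO 2, KO 3, Ctrl 1, Ctrl 2 or Ctrl 3 left out, 0 of the 20 passed. The share of all genes called was 5.23% without KO 3 and 0 in the rest of these fits. Without KO 1, 4 of the 20 passed, beside 29.7% of all genes. KO 1 was the highest KO library for 16 of the 20 mitosis genes and for 20 of the 46 replication genes (43.5%, against 40.7% of all genes), and Ctrl 1 the lowest Ctrl library for 19 of the 20 (against 44.0% of all genes). Endothelial markers had a median log2 fold change of 1.41, larger than that of either list. They separated the groups with KO above in 12 of 15 genes (80.0%, against 19.0% of all genes).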

How the data were processed

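Per the submitters' processing notes, reads were handled with STAR, Trimmomatic 0.36, deepTools, edgeR and DESeq2 on mm10, with no role stated; which tool counted reads, and on which annotation, is not given in the sources used here. Per the labels' protocols, polyadenylated RNA was amplified as full-length cDNA, tagmented and sequenced as single reads, which does not mark the strand. The deposited table holds raw counts for 34035 transcript entries. Per the file headers, the authors also deposited normalized counts (a signal, counts divided by a size factor), RPKM, a log2 fold change, its error and test statistic (a score), the p-value and the adjusted p-value. One deposited count column of the Ctrl group carries another number than its replicate; Ctrl 3 was assigned to it, as the others are named for Ctrl 1 and Ctrl 2 and it is proportional to the normalized column headed as Ctrl 3.

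For each symbol the entry with the longest length was used, ties going to the highest raw-count sum. KO was compared with Ctrl by edgeR 4.0.16 (quasi-likelihood, TMM, filterByExpr, R 4.3.3) over 16217 genes, two-sided, with Benjamini-Hochberg adjustment and a threshold of 0.05. The fit was tested on simulated data. The standard error is the log2 fold change divided by the square root of F. With 3 against 3 an exact permutation p cannot go below 0.1. Of the 46 genes 15 overlap another gene of the table. GC content is from GENCODE M21 transcripts and covers all 46, and promoters and positions are from RefSeq GRCm38.p6. DESeq2 1.42.0 and limma 3.58.1 served as alternatives, beside other scalings, filters, entries, a replicate block and leaving out each library. Figures were made with matplotlib 3.10.9 in Python 3.11.15. The members, the lists and the tests were chosen with earlier results of these data known. The text names all 46 genes, Rnf20 and the genes past the threshold in the 3 pathway lists. It also names, after their values were seen, Orc2 to Orc5, Pold4 and genes that overlap a member. The value of 1 marker gene is not reported here.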

Additional observations from a re-analysis of the deposited data

How the results depend on the processing

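The count of the 46 genes past the threshold was 2 in the reported fit. It was 5 with DESeq2, which called Mcm5, Tk1 and Chaf1b as well, 0 with the replicate block, and 0 to 7 with a library left out. The count of all genes was 3556 with DESeq2, 1 with the replicate block and 0 to 4927 with a library left out. Further replication factors called numbered 4 with DESeq2, 2 with GC offsets and 0 to 10 with a library left out. Of the other G1/S genes 7 were called with DESeq2, 0 with the block and 0 to 9 with a library left out, and of the mitosis genes 5, 0 and 0 to 4, and 1 with library totals alone. The median log2 fold change of the 46 genes lay between 0.29 (library totals) and 0.63 (without KO 3). Scaling by library totals moved the median of all genes to −0.09. Deviations of same-numbered libraries from their group means correlated at −0.39, 0.07 and −0.26 over the tested genes. With so few libraries, these values cannot show whether the replicate numbers pair the samples. The cause of these changes was not tested.

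No member past the threshold changed sign. With GC offsets the sign turned for Orc1 (0.04), Cdt1 (−0.08), Pola1 (0.47), Rfc4 (0.21), Rpa1 (0.07), Rrm1 (0.16) and Dnmt1 (−0.12). With library totals it turned for Rfc3 (−0.08) and Dnmt1 (−0.02), with DESeq2 size factors (0.02) and DESeq2 (0.01) for Rpa1, and with limma-voom and the replicate block (−0.07 each) for Rpa3. With a library left out the estimates spanned 0 for Orc6 (−0.04 to 0.28), Mcm7 (−0.16 to 0.07), Gins3 (−0.10 to 0.47), Pola1 (−0.65 to 0.33), Prim2 (−0.27 to 0.50), Pole (−0.10 to 0.85), Rfc3 (−0.04 to 0.18), Rfc4 (−0.53 to 0.05), Rfc5 (−0.13 to 0.01), Rpa1 (−0.14 to 0.18), Rpa3 (−0.50 to 0.45), Dnmt1 (−0.28 to 0.40) and E2f8 (−0.01 to 0.60). Members held between 7 and 4937 counts per library, and at the low end Mcm10 and Cdc6 in Ctrl 1 limit the estimates.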
